A study of Rattus norvegicus with 138 samples.

Results

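Minced muscle grafts (MMG) were compared with no repair in the injured tibialis anterior (TA) muscle of running rats, 7 days after volumetric muscle loss (VML). The comparison holds 8 muscles from 8 rats, 4 grafted (rats 007, 008, 027 and 028) and 4 unrepaired (rats 003, 004, 031 and 032), of 76 injured muscles fitted together. Members were chosen by their labels: injured, run, grafted or not repaired, day 7. Libraries with fewer than 7000 gene symbols above 1 TPM (transcripts scaled to one total per library) were left out, which removed 3 of 11 libraries of these muscles and left exactly 1 library for each muscle. All 8 rats were male inbred Lewis rats of about 4 months, and each received the injury with a 6 mm punch in 1 TA muscle. Grafted rats received pieces of about 1 mm3 minced from muscle of the same animal, whereas the defect of unrepaired rats was left empty. The labels mark all 8 rats as running, and how and when they ran is not given in the sources used here. The other groups set beside them were injured muscles of the same 2 repair arms from non-running rats at 7 days (8 and 8 muscles) and from running rats at 3 days (6 and 8) and 14 days (4 and 4). Contralateral muscle of rats 003, 004, 007 and 008 and the left and right muscles of 2 control rats gave the background levels. The controls are labelled sham, non-running and day 0, and the study's text calls its controls unoperated.

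VML removes fibers, satellite cells and their matrix scaffold together, and the defect tends to fill with scar. Satellite cells are the stem cells of muscle: they carry Pax7, commit through Myf5 and Myod1, differentiate with Myog and fuse through Tmem8c (myomaker) into new fibers that first carry embryonic myosin, Myh3. Macrophages clear debris and signal to these cells, and fibroblasts and fibro-adipogenic progenitors lay down collagen. A minced graft returns muscle pieces that still hold satellite cells and basal lamina. The RNA came from whole tissue, so graft and host RNA cannot be told apart, and neither can fewer cells of a type and less RNA per cell.

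The question was whether the graft altered the transcriptome of injured muscle in running rats at 7 days. No gene met both thresholds, a limma adjusted p under 0.05 and a log2 fold change beyond 1 in either direction (0 of 11257 genes tested, 0%). None passed the adjusted p alone, and the lowest adjusted p was 0.555. At an unadjusted p under 0.05 there were 931 genes, 884 with a higher mean after grafting (7.85%) and 47 with a lower one (0.418%). The 4 grafted muscles lay wholly above the 4 unrepaired ones for 346 genes (3.07%) and wholly below for 13 (0.115%). All fold changes are differences of mean log2(TPM + 1), grafted minus unrepaired. The p-values set them against a spread between muscles pooled over all 76 injured muscles in 16 groups, not over these 8 muscles alone.

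Most of this upward lean was shared by the table as a whole. Across the 11257 genes the middle log2 fold change was 0.11, and 78.5% of genes lay above 0. After scaling by median-of-ratios size factors the median was 0.00 and 50.7% lay above 0. The unadjusted counts then became 191 higher and 189 lower, and the groups were apart for 85 genes higher and 67 lower. The 100 most abundant genes took 34.8% to 37.9% of all TPM in grafted muscles and 34.9% to 42.4% in unrepaired ones, and their part in the shift was not tested. Fold changes below are therefore read against 0.11 and not against 0.

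The comparison had the resolution to bound most genes. The 95% interval of the log2 fold change lay wholly between -1 and 1 for 10728 genes (95.3%), and its median half-width was 0.295. Means differed by more than 1 on the log2 scale for 33 genes, 6 higher and 27 lower in grafted muscle. Pearson's r across genes was 0.969 to 0.988 within the grafted group, 0.960 to 0.992 within the unrepaired group and 0.945 to 0.989 between them, with medians of 0.979, 0.978 and 0.982. Unrepaired rat 031 stood apart from its group, with r of 0.960 to 0.968 to the other 3. Its adult sarcomere genes summed to 80050 TPM against 165400 to 179800 in the other unrepaired muscles, and its fibrillar collagens to 24550 against 12140 to 14080. Without it the median over all genes was 0.165 with 82.3% above 0, and the values without rat 031 below are read against these. The muscle label fits the fast TA in all 8 samples, with Ckm at 4324 to 11205 TPM and the fast myosin Myh4 at 1423 to 5892 TPM.

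The genes nearest to a call in the upward direction were Dsc2, Syt8, Fam204a, Fancd2, Fst and Rbm34, the 6 with the lowest p; none was called. Fst encodes follistatin, a secreted protein that binds myostatin and activins and so favors muscle growth. It stood at 24.6, 29.9, 31.9 and 27.9 TPM in grafted rats 007, 008, 027 and 028, and at 19.5, 14.8, 14.0 and 15.6 TPM in unrepaired rats 003, 004, 031 and 032. Every grafted muscle lay above every unrepaired muscle, with a log2 fold change of 0.80 (SE 0.23, 95% interval 0.34 to 1.27, limma adjusted p = 0.555). Both levels exceeded contralateral muscle, at 2.47 to 5.65 TPM, and control muscle, at 0.26 to 1.14 TPM. Fancd2, of the Fanconi anemia DNA repair pathway, was at 4.85 to 5.64 TPM after grafting and 3.00 to 4.18 TPM without repair, again with no overlap (log2 fold change 0.42, SE 0.12). Fam204a and the nucleolar RNA-binding gene Rbm34 also did not overlap, at log2 fold changes of 0.33 and 0.30.

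Dsc2, a desmosomal cadherin, and Syt8, a member of the synaptotagmin family, overlapped through rat 027 alone. Syt8 was at 4.28, 4.20, 1.37 and 6.85 TPM in the grafted muscles and 2.46, 1.53, 1.72 and 2.34 TPM in the unrepaired ones (log2 fold change 0.67, SE 0.19). Rat 027 lay below all 4 unrepaired muscles and the other 3 grafted rats above them. Without rat 027, Syt8 was the only gene called, at a log2 fold change of 1.01 and an adjusted p of 0.00137. Dsc2 was low throughout, at 0.69 to 1.51 TPM after grafting and 0.42 to 0.87 TPM without repair.

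Of the 6 genes with the lowest p in the downward direction, 5 are described here, 4 genes of leukocytes and 1 microRNA locus. Cd79b, part of the B cell receptor, was at 0.18 to 0.95 TPM against 0.33 to 3.11 TPM (-0.69), and Mcpt8l2, a mast cell protease family gene, at 0.08 to 0.60 TPM against 0.26 to 1.77 TPM (-0.58). Of the 16 groups, only the unrepaired running group at 7 days had a mean above 1 TPM for either, so both were tested only through the group where they were high, and their low p is no support for a difference. In all, 26 genes entered the test through that group alone, 26 of them lower after grafting, and 17 through the grafted group alone, 17 of them higher. Without rat 031, Cd79b and Mcpt8l2 were no longer tested. The natural killer receptors Klrb1b (-0.54) and Klrb1c (-0.64) averaged 1.21 and 1.28 TPM after grafting and 2.28 and 2.37 TPM without repair. They are near-identical paralogs whose reads may be shared. These levels were near 1 TPM, none was called, and their levels in non-running rats differed by -0.15 to 0.03. T and NK cell genes, 21 of 23 tested, gave a median of -0.09 with 5 above 0 (-0.21 over 19 members under size factors, and -0.19 without rat 027), and their summed level was 171 to 202 TPM after grafting and 173 to 238 TPM without repair.

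The microRNA locus was Mir542, whose 2 mature products are shown because its fold change was the largest of the lowest-p genes described here. RefSeq places both on the minus strand of the X chromosome in build GRCr8, and the seed, bases 2 to 8, is in capitals.
rno-miR-542-3p, chrX:137722185-137722206: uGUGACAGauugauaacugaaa
rno-miR-542-5p, chrX:137722223-137722244: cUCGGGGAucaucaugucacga
The table was made from fragment libraries and quantifies the hairpin of 79 bases, not these mature forms. Mir542 was at 2.18, 0, 0 and 3.19 TPM in grafted muscles and 6.01, 7.45, 5.60 and 2.97 TPM in unrepaired muscles (log2 fold change -1.72, SE 0.54, adjusted p = 0.555). It was listed at 0 in all contralateral and control muscles. In non-running rats the difference was 0.79 in the other direction, and the difference between them, -2.51 (SE 0.66), had an unadjusted limma p of 0.000314 and an adjusted p of 0.88.

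**Figure D1:**
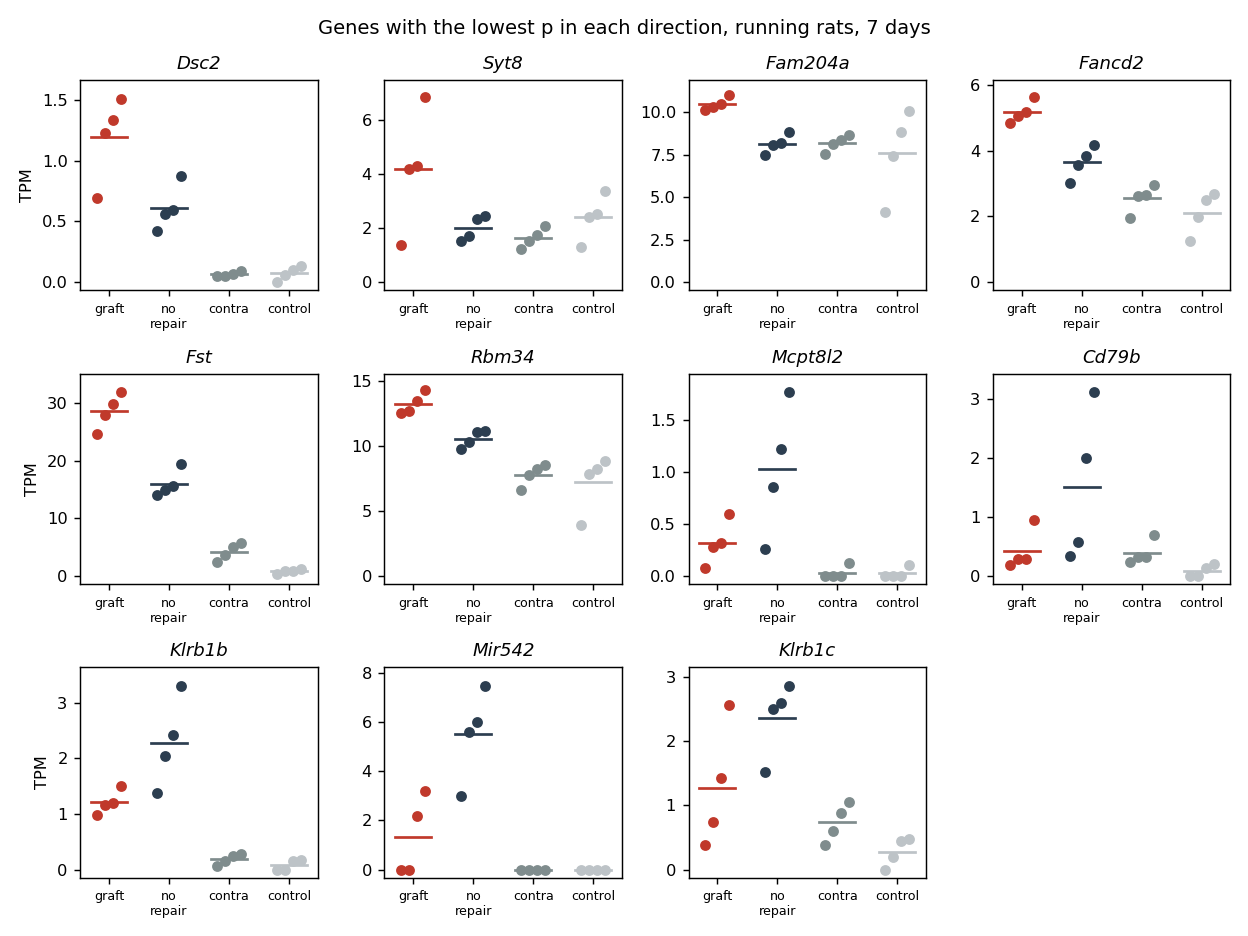
TPM in each muscle (points) and group means (bars) for the 6 genes with the lowest p upward and 5 of the 6 with the lowest p downward, in grafted and unrepaired injured muscle, contralateral muscle (contra) and control muscle, 4 muscles each. Fst, Fancd2, Fam204a and Rbm34 do not overlap between grafted and unrepaired muscle, whereas the other 7 do.

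Genes of the myogenic program had higher means in grafted muscle, without a call. Of 24 members tested, 23 lay above 0 with a median log2 fold change of 0.29, where 78.5% of all genes lay above 0 with a median of 0.11. Under size factors the median was 0.17 and 22 lay above 0. Without rat 031 it was 0.16 with 19 above 0, no higher than that of all genes. Myf5, Itga7 and Six4 had an unadjusted p under 0.05, where 7.85% of all genes had such a p and a higher mean. Myf5, which marks committed myoblasts, was at 13.3, 20.4, 20.9 and 16.8 TPM in grafted muscles and 12.2, 9.46, 8.02 and 15.4 TPM in unrepaired ones (log2 fold change 0.64, SE 0.26, adjusted p = 0.555). Rat 007 fell inside the unrepaired range and the other 3 grafted muscles lay above it. Itga7, the laminin-binding integrin of satellite cells and fibers, was at 82.3, 82.5, 55.8 and 82.5 TPM against 66.9, 49.0, 43.0 and 51.3 TPM (0.52, SE 0.19), with only rat 027 overlapping.

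Pax7 and the differentiation genes overlapped widely. Pax7 was at 4.60, 6.77, 1.91 and 3.03 TPM after grafting and 4.24, 3.73, 1.68 and 3.23 TPM without repair, so both groups held its low and high levels (log2 fold change 0.21, 95% interval -0.30 to 0.73). Myog was at 266, 393, 489 and 332 TPM against 340, 216, 142.5 and 274 TPM (0.64, SE 0.34), and Myf6 at 183, 397, 568 and 185 TPM against 241, 240, 111 and 242 TPM (0.57, SE 0.32). The grafted range of Myf6 enclosed 3 of the 4 unrepaired muscles. With single muscles left out, Myog ranged from 0.41 (without rat 031) to 0.82, and Myf6 from 0.26 (without rat 027) to 0.80. Myog was far above the injury-free background in either arm, which was 10.4 to 18.2 TPM in contralateral and 2.44 to 8 TPM in control muscle. For Myf6 the background was 89.9 to 96.1 TPM in contralateral and 54.4 to 141.4 TPM in control muscle, and rat 031 lay inside the control range. Myod1 differed by 0.21 (SE 0.31), Tmem8c by 0.30 (SE 0.36) and Myh3 by 0.27 (SE 0.45). Myh3, which tags newly formed fibers, was at 128.4 to 328 TPM after grafting and 128.8 to 254 TPM without repair, against 0.64 to 3.67 TPM in contralateral muscle.

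Repressors of myogenesis did not lean beyond the rest of the table. The 14 members had a median of 0.11, equal to that of all genes, with 11 above 0, none at an unadjusted p under 0.05 and all 14 intervals between -1 and 1. Under size factors the median was -0.01, without rat 004 it was 0.01, and without rat 031 it was 0.27 with 12 above 0, higher than the myogenic median there. The values were 0.11 for Id2 and 0.16 for Id3, which block myogenic factors from DNA, 0.19 for Msc, 0.03 for Snai1 and 0.06 for Bmp1, and those of Id2, Snai1 and Bmp1 turned below 0 under size factors. Mstn (myostatin), the brake on muscle mass that follistatin binds, was at 2.30 to 6.53 TPM after grafting and 1.98 to 4.28 TPM without repair (0.15, SE 0.34). It was at 17.1 to 25.4 TPM in contralateral muscle, so both arms were low in it.

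Genes of denervation and muscle stress had the highest median of the muscle lists, 0.52, with 19 of 20 above 0 and 1 (Lrp4, a receptor of neuromuscular junction formation) at an unadjusted p under 0.05. Of all genes, 78.5% lay above 0 and 7.85% had such a p and a higher mean. Under size factors the median was 0.40 with 18 above 0 and 0 at such a p. The grafted muscles were split among themselves. The summed list was 5917 and 5434 TPM in rats 007 and 028 and 13460 and 12690 TPM in rats 008 and 027, against 9268, 7681, 3371 and 6441 TPM in rats 003, 004, 031 and 032. Chrng, the fetal subunit of the acetylcholine receptor, was at 77.8, 188, 209.5 and 106.2 TPM against 160, 81.5, 45.2 and 95.7 TPM (0.63, SE 0.43). Ankrd1, a stretch-responsive titin-binding protein, was at 779, 1940, 1989 and 870 TPM against 1300, 1231, 406 and 874 TPM (0.55, SE 0.40). In both, rats 008 and 027 exceeded every unrepaired muscle and rats 007 and 028 did not, and rat 031 was the lowest unrepaired muscle. Without rat 031 the list median was 0.22, Chrng was 0.317 and Ankrd1 was 0.185. In non-running rats at 7 days the list median was -0.01, with 0 members past the adjusted p. In running rats it was 0.11 at 3 days and -0.32 at 14 days.

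Adult sarcomere genes did not lean upward with the rest, at a median of -0.08 with 13 of 37 above 0 (-0.20 with 4 above 0 under size factors, -0.40 with 2 above 0 without rat 031, and 0.03 with 21 above 0 without rat 004). The lowest members were Myl2, Myl3 and Myh7, which slow fibers carry, whereas the slow troponins Tnnc1, Tnni1 and Tnnt1 (0.05 to 0.09) and the slow calcium pump Atp2a2 (0.20) did not go with them. Myl2, the slow regulatory light chain, was at 130, 14.7, 148 and 253 TPM after grafting and 320, 460, 240 and 458 TPM without repair (log2 fold change -1.93, SE 0.95, unadjusted limma p = 0.0465, adjusted p = 0.555). Rat 008 was lowest by far and rat 028 alone reached into the unrepaired range. Myl3 was at 254, 85.9, 116 and 230 TPM against 335, 652, 207 and 514 TPM (-1.33, SE 0.66), and Myh7, the slow myosin, at 3.14 to 46.2 TPM against 28.9 to 65.2 TPM (-1.26, SE 0.98). Without rat 008, Myl2 was -1.07, Myl3 -1.04 and Myh7 -0.50. Lower means were not limited to slow fiber genes. Myh2, a myosin of fast fibers, was at 114 to 381 TPM against 196 to 703 TPM. Its difference was -1.13 under size factors, -1.44 without rat 031 and -0.655 without rat 008. The fast myosin Myh4 was at 2180 to 5892 TPM against 1423 to 4376 TPM (0.29, SE 0.36) and turned to -0.10 without rat 031. Contralateral muscle held 10854 to 19181 TPM of Myh4, above every injured muscle of both arms. Myl2 was at 408 to 772 TPM in contralateral and 264 to 480 TPM in control muscle, and the unrepaired muscles overlapped both ranges whereas the grafted ones lay below them.

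Within rats numbered 003 to 008 and within rats numbered 027 to 032, each with 2 grafted and 2 unrepaired muscles, some of these leans held and others rested on 1 range. The median of all genes was 0.15 in the lower and 0.06 in the higher range. The myogenic median was 0.27 and 0.38 in the same order, and Itga7 was 0.52 in both. Myog was 0.25 and 1.02, the denervation median 0.13, below that of all genes there, and 0.77, and Myl2 -3.08 and -0.77. Over all tested genes the sign was the same in both ranges for 66.1%. Neither range was tested alone. With the range as a covariate of the fit, 1138 genes were higher and 64 lower at an unadjusted p under 0.05, and the lowest adjusted p was 0.46.

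Genes of fibrosis did not differ detectably. Fibrillar collagens had a median of -0.10 with 2 of 9 above 0, other structural matrix genes -0.16 with 6 of 30, and matrix enzymes and inhibitors -0.04 with 14 of 34. Col11a2 was the only member of the 3 lists at an unadjusted p under 0.05 (-0.82, SE 0.39). Without rat 031 the medians were 0.12, 0.07 and 0.16, still at or below that of all genes, and without rat 007 they were -0.30, -0.27 and -0.16. Col1a1, the main scar collagen, was at 6148, 2618, 3762 and 6658 TPM after grafting and 4376, 4201, 9032 and 3747 TPM without repair (log2 fold change -0.16, 95% interval -0.93 to 0.61). The highest and the lowest muscles of the 8 were rat 031 and rat 008, and the other 6 interleaved. Contralateral muscle held 49.5 to 597 TPM and control muscle 11.4 to 21.5 TPM.

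Col3a1 (-0.19, SE 0.27), the gelatinase Mmp2 (-0.35, SE 0.33) and the fibro-adipogenic marker Pdpn (-0.16, SE 0.25) had lower means after grafting. Without rat 031 these 3 differed by -0.014, -0.052 and 0.049. Eln, Lox, Pdgfra and S100a4 differed by 0.03 to 0.07 and turned below 0 under size factors. Acta2, the smooth muscle and myofibroblast actin, was at 215 to 533 TPM against 163 to 489 TPM (0.19, SE 0.29). Mesenchymal progenitor genes had a median of 0.02 (0.15 without rat 031), and all 13 intervals lay between -1 and 1. A difference of 1 on the log2(TPM + 1) scale was thus outside the 95% interval for each of these 13 genes. Pdgfra (-0.33 to 0.44) and Pdpn (-0.67 to 0.34) were among them. For a gene near 1 TPM, such a difference is more than a doubling of TPM.

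In the TGF-beta family, the main driver of scar formation, 15 of 26 members lay above 0, fewer than the 78.5% of all genes, with a median of 0.05 (0.17 without rat 031). The ligand Tgfb1 was at 65.9 to 109 TPM after grafting and 55.8 to 113 TPM without repair (0.11, SE 0.20). The receptor Tgfbr1 was at 36.0, 33.8, 31.2 and 41.4 TPM against 21.9, 20.1, 35.2 and 26.5 TPM (0.47, SE 0.18), where only rat 031 reached the grafted range. The transducers Smad2 and Smad3 differed by 0.11 (SE 0.10) and 0.16 (SE 0.19). Fst, described above, and Tgfbr1 were the 2 members higher at an unadjusted p under 0.05, a share near the 7.85% of all genes.

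**Figure D2:**
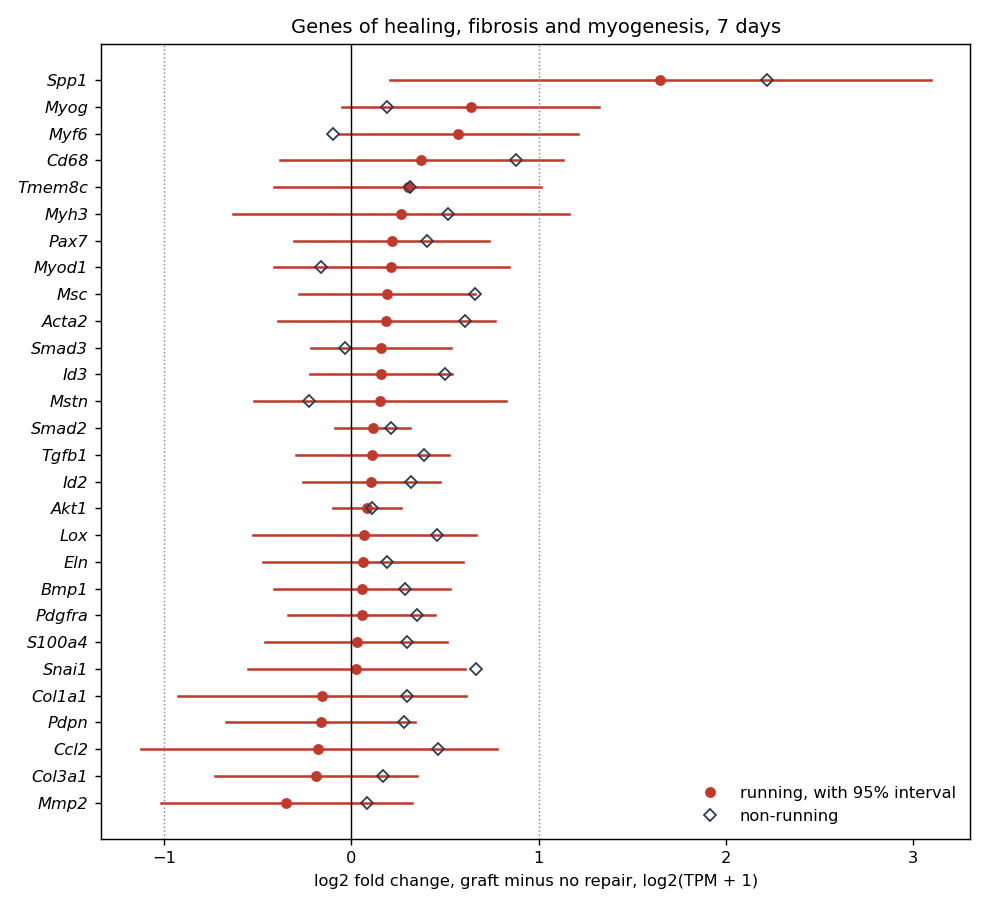
Log2 fold change, grafted minus unrepaired, of 28 genes of healing, fibrosis and myogenesis in running rats (red, with 95% limma interval) and in non-running rats (open diamonds) at 7 days. Dotted lines mark a log2 fold change of -1 and 1; only the interval of Spp1 lies wholly above 0.

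Inflammation showed 1 large and variable difference. Spp1 encodes osteopontin, a matrix cytokine that macrophages in regenerating muscle release in quantity. It was at 987, 848, 947 and 1955 TPM in grafted muscles and 128.3, 147.6, 1015 and 819 TPM in unrepaired rats 003, 004, 031 and 032. Rats 003 and 004 were several-fold below the other 6 muscles, which overlapped (log2 fold change 1.65, SE 0.72, 95% interval 0.21 to 3.10, adjusted p = 0.555). The difference was 2.72 among rats 003 to 008 and 0.58 among rats 027 to 032. Contralateral muscle held at most 1.58 TPM.

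Macrophage genes had a median of 0.13, near that of all genes, with 22 of 27 above 0 and none at an unadjusted p under 0.05. Without rat 031 the median was 0.38 with 24 above 0, and without rat 004 it was 0.00 with 13 above 0. Cd68 was at 178, 133.2, 180 and 347 TPM after grafting and 107.3, 85.7, 299 and 189 TPM without repair (0.37, SE 0.38). Its difference was 0.10 without rat 028 and 0.70 without rat 031. The lysosomal and lipid macrophage list had a median of 0.26, with 16 of 20 above 0, a share near the 78.5% of all genes. Spp1, Ctsl and Ctsd had an unadjusted p under 0.05, against 7.85% of all genes. Without rat 031 it was 0.42 with 6 such genes, where 16% of all genes had such a p and a higher mean. Without rat 004 or rat 028 it was 0.18 with 0 such genes. Ctsl, the lysosomal protease cathepsin L, was at 806, 945, 1094 and 1139 TPM against 730, 583, 888 and 701 TPM (0.46, SE 0.18), with rat 031 above 1 grafted muscle.

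Gpnmb, a glycoprotein of lipid-laden macrophages, was at 869, 791, 723 and 1157 TPM against 460, 377, 827 and 584 TPM (0.69, SE 0.38). Here too rat 031 alone lay inside the grafted range. The chemokine Ccl2, which recruits monocytes, was at 26.7 to 142.1 TPM against 47.6 to 181 TPM (-0.18, SE 0.48). Cytokines and chemokines (median -0.08), interferon response genes (-0.14, 3 of 22 above 0), complement (-0.19, 5 of 21) and class II antigen presentation (-0.20, 3 of 8) lay below the median of all genes. Without rat 031 these medians were 0.23, -0.03, 0.05 and 0.02.

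Proliferation genes all had higher means in grafted muscle, 34 of 34, with a median of 0.31 and a range of 0.15 to 0.45. Aurka, Mcm7 and Foxm1 had an unadjusted p under 0.05, a share near the 7.85% of all genes, and none was called. Mki67, which marks cycling cells, was at 13.8, 7.27, 6.60 and 14.0 TPM after grafting and 6.24, 5.19, 10.6 and 7.50 TPM without repair (0.41, SE 0.23). Rats 007 and 028 lay above every unrepaired muscle and rats 008 and 027 among them. The list median was 0.53 among rats 003 to 008 and 0.09 among rats 027 to 032. It was 0.20 under size factors with 34 above 0 and 0 at such a p. With single muscles left out the median ranged from 0.14 without rat 028, with 2 genes at an unadjusted p under 0.05, to 0.49 without rat 031, with 23, where 16% of all genes had such a p and a higher mean. Without rat 004 it was 0.17 with 0 such genes.

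Oxidative phosphorylation genes leaned the other way by a small amount, with 0 of 40 above 0, a median of -0.15 and a range of -0.31 to 0.00, and 0 at an unadjusted p under 0.05. The median was -0.27 under size factors with 2 genes at such a p, -0.28 without rat 031 with 15 (1.09% of all genes there), and -0.07 without rat 032 with 0. All 40 intervals lay between -1 and 1. Their summed level was 21090 to 23260 TPM after grafting and 19000 to 30260 TPM without repair. Glycolysis genes had a median of -0.16 with 4 of 20 above 0 (-0.44 without rat 031 and -0.02 without rat 004). Heat shock and folding genes were near the median of all genes at 0.14, and endothelial genes at 0.05 (0.27 without rat 031 and -0.07 without rat 004) had all 21 intervals between -1 and 1.

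**Figure D3:**
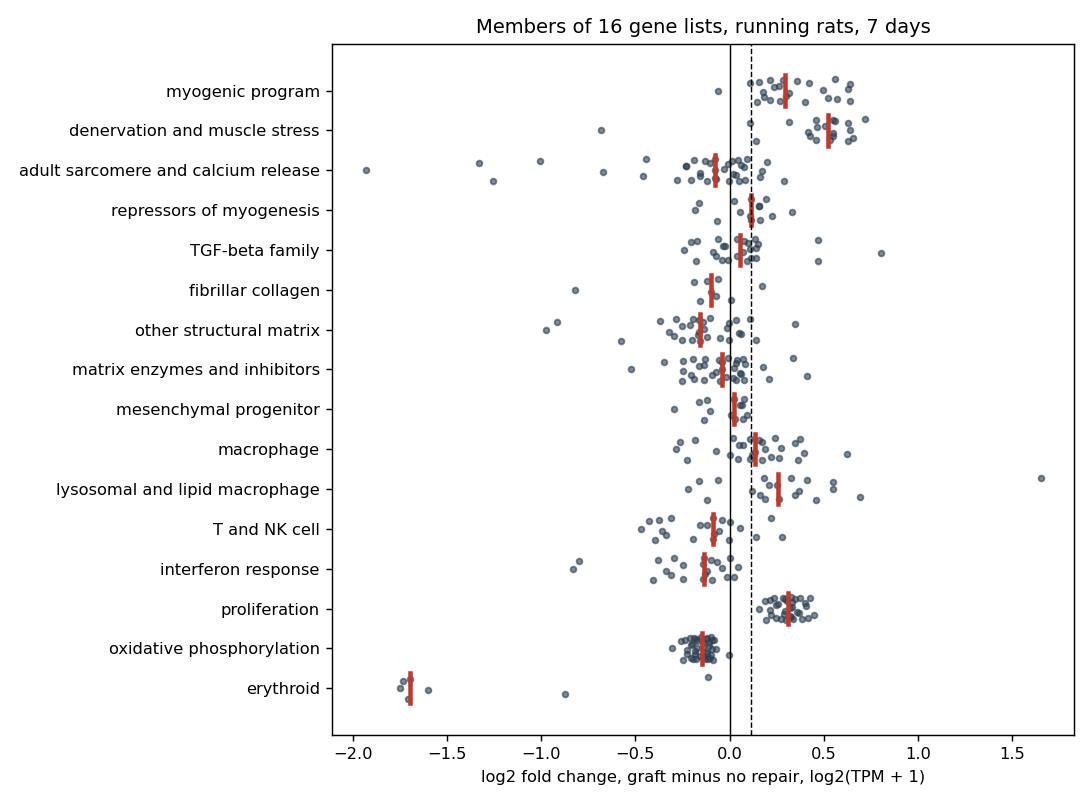
Log2 fold change, grafted minus unrepaired, of each tested member (points) of 16 gene lists in running rats at 7 days, with the list median (red bar). The dashed line is the median of all 11257 genes (0.11); proliferation genes all lie above 0 and erythroid genes reach -1.75.

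Markers of other tissues were present in both arms, and whether dissection carried them was not tested. Tendon and cartilage genes summed to 37.3 to 325 TPM in contralateral and 49.6 to 72.6 TPM in control muscle, below every injured muscle. Smooth muscle sums were also higher in every injured muscle, whereas adipocyte sums overlapped. Tendon and cartilage genes had a median of -0.39 with 2 of 11 above 0 (-0.69 among rats 003 to 008, -0.11 among rats 027 to 032, -0.22 without rat 008 and -0.68 without rat 027), and summed to 446 to 880 TPM after grafting and 613 to 1318 TPM without repair. Tnmd, a marker of tendon cells, averaged 56.3 and 116.8 TPM (-1.20, SE 0.79). Smooth muscle genes had a median of 0.12 (0.24 without rat 031) and adipocyte genes of -0.14 (0.10 without rat 031). Neutrophil (-0.12 over 10 of 17 members), B cell (-0.21 over 4 of 9), Schwann cell (0.06 over 12 of 19), circadian (0.14 over 15 of 19) and keratinocyte genes (0.03 for 1 of 8) were too sparsely tested to be read as lists.

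Erythroid genes had the lowest median of any list, -1.69, with 0 of 7 above 0 and 4 lower at an unadjusted p under 0.05, against 0.418% of all genes. This count was 0 without rat 003, 004, 007 or 008, and the median ranged from -1.04 without rat 004 to -2.27 without rat 032. Hba1, an alpha globin, was at 1072, 1209, 1748 and 2983 TPM in grafted muscles and 6607, 17416, 4339 and 1732 TPM in unrepaired ones (log2 fold change -1.75, SE 0.78, adjusted p = 0.555). Rats 003, 004 and 031 exceeded all grafted muscles and rat 032 did not. Hba2 (-1.74) and Hbb (-1.71) followed the same order in the unrepaired muscles, and globin paralogs may share reads. Alas2, the first enzyme of heme synthesis in red cells, was at 3.43 to 7.84 TPM against 3.65 to 77.2 TPM (-1.60, SE 0.83).

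In rats 003 and 004 the globin level was high in both legs. The summed erythroid list was 1.64% and 4.45% of TPM in the injured muscles of rats 003 and 004 and 1.94% and 3.00% in their contralateral muscles. It was 0.277% and 0.310% in the injured muscles of rats 007 and 008, with 0.888% and 0.184% on the contralateral side. Control muscles held 0.195% to 0.540%. The difference in the list median was -3.15 among rats 003 to 008 and -0.23 among rats 027 to 032. Of the leukocyte genes described above, Cd79b, Mcpt8l2 and Klrb1b were highest in rat 031, and the part of blood in them was not tested.

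**Figure D4:**
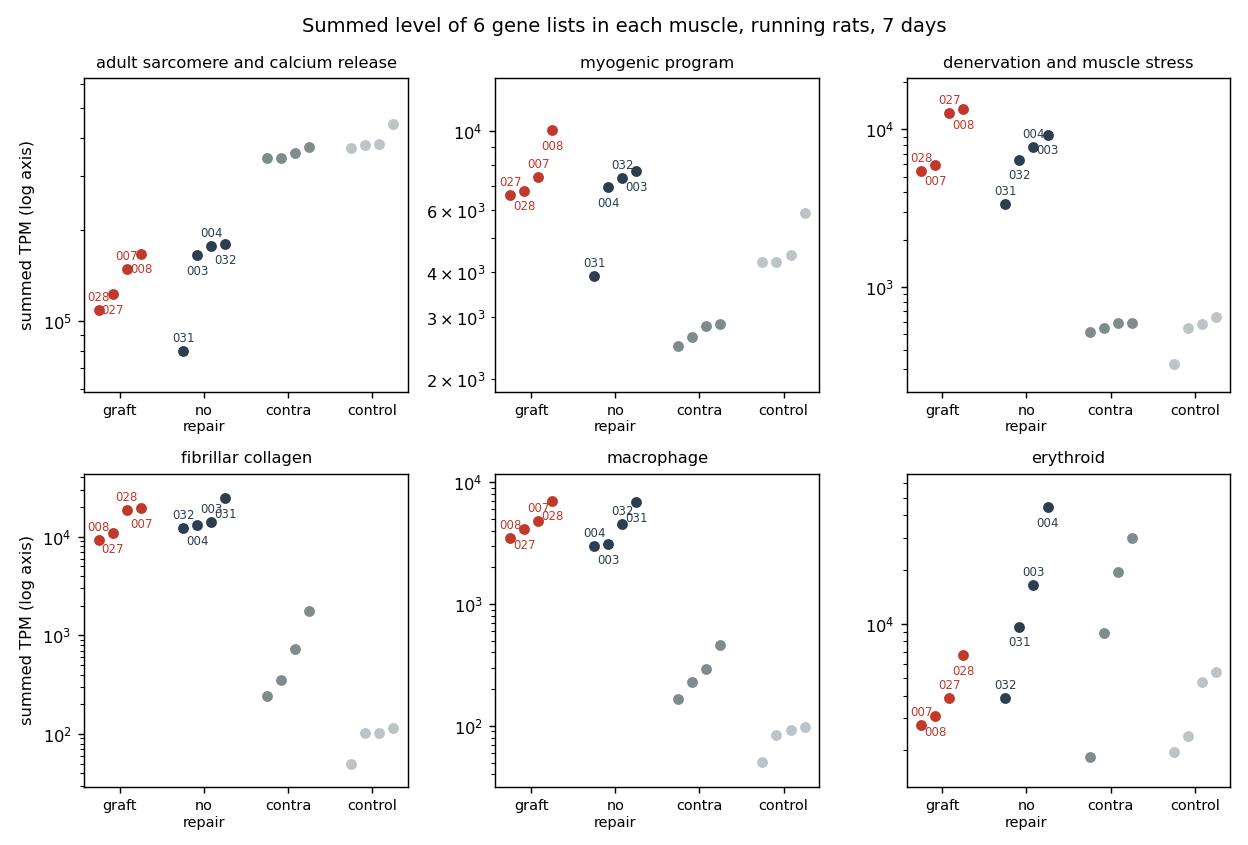
Summed TPM (log axis) of 6 gene lists in each muscle, with the rat number beside grafted and unrepaired injured muscles, and in contralateral and control muscle. Of the injured muscles, rat 031 is lowest in sarcomere genes and highest in fibrillar collagen, and rats 003 and 004 are highest in erythroid genes.

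Non-running rats at 7 days share no muscle with this comparison and show the same 2 arms with 8 muscles each. There, 591 genes passed the adjusted p alone (5.25%), 589 higher (5.23%) and 2 lower, and 9 were called, all higher (0.08%). Unrepaired rat 011 of that comparison was at 16.2% ribosomal RNA. With ribosomal RNA removed from all muscles, 5 genes were called (0.0442%). Under size factors 68 passed higher and 1 lower, and Spp1 alone was called. Of the 589 genes, 568 also had a higher mean in running rats (96.4%, against 78.5% of all tested genes), with a median log2 fold change of 0.21. Of these 589, 66 had an unadjusted p under 0.05 in running rats (11.2%, against 8.27% of all genes), and the groups did not overlap for 6 (1.02%, against 3.19%). The p-values of both comparisons use 1 shared spread per gene, so the count of 66 is not independent of how the 589 were chosen.

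Of the 9 genes called in non-running rats, 8 had higher means in running rats (88.9%, near the 78.5% of all genes) and none separated the groups, which 3.19% of all genes did. Acpp, an acid phosphatase, was at 4.56, 3.20, 2.65 and 5.96 TPM after grafting and 1.36, 1.44, 3.72 and 2.38 TPM without repair (0.67, SE 0.25), and at 1.01 in non-running rats. The scavenger receptor Msr1 differed by 0.62 (SE 0.31) in running and 1.09 in non-running rats, the lipid receptor Trem2 by 0.55 (SE 0.43) and 1.09, and the adhesion molecule Cadm4 by 0.63 (SE 0.27) and 1.03. Spp1 differed by 1.65 and 2.22. Mir628 was the exception, at -0.21 (SE 0.73) and 1.65.

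In the other direction, 3 of the 6 genes with the lowest p upward in running rats passed the adjusted p in non-running rats, where 5.25% of all genes did. Both comparisons took each gene's spread from 1 shared fit. Genes chosen for a low p in one therefore tend to a low p in the other, and the share of all genes is not a fair background for this count. Syt8 was 0.90 there (adjusted p = 4.02e-05), Dsc2 0.47 (adjusted p = 0.00095) and Fst 0.61 (adjusted p = 0.0283). None of the 5 downward genes described above passed, and Mir542 and Klrb1b had higher means there. Of the 346 genes whose groups did not overlap in running rats, 6 passed in non-running rats (1.73%), below the share of all genes, and 327 had higher means there (94.5%, against 76.5% of all genes). Proliferation genes had a median of 0.57 in non-running rats with 28 of 34 past the adjusted p, which fell to 1 of 34 under size factors, where the median was 0.46.

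**Figure D5:**
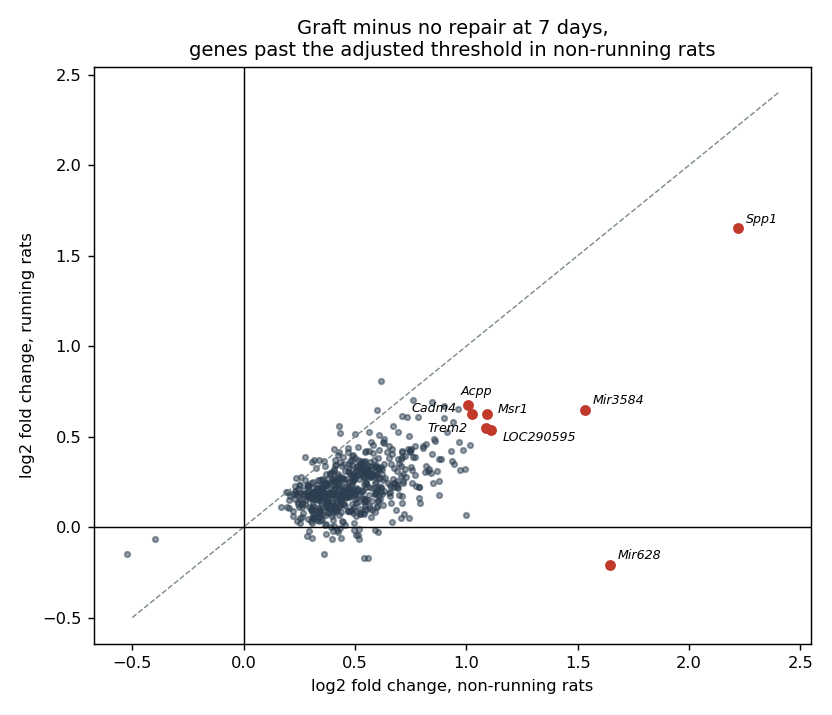
Log2 fold change, grafted minus unrepaired, in running against non-running rats at 7 days for the 591 genes that passed the adjusted p in non-running rats, with 8 of the 9 called ones in red and named; the dashed line marks equal values. Most points lie above 0 and below the line; Mir628 lies below 0.

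The graft effect itself did not differ detectably between running and non-running rats. No gene was called for the difference (0 of 11257, 0%), none passed the adjusted p, 261 had an unadjusted p under 0.05, and the lowest adjusted p was 0.88. The 95% interval of the difference lay between -1 and 1 for 10042 genes (89.2%). Lower p in the downward direction, after Mir542, fell to Dusp14 and Klrb1b (-0.57, SE 0.20). In the upward direction they fell to Hist1h1t, Serinc4 and the cytokine gene Csf2 (0.73, SE 0.24).

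At 3 days in running rats the graft called no gene either (0%), and 1 gene passed the adjusted p alone (0.00888%). This was Hmga2, a chromatin protein of proliferating progenitors, at 0.67 (adjusted p = 0.000243); at 7 days it was 0.28 (SE 0.14), at means of 0.33 and 0.09 TPM. The difference between 7 and 3 days called no gene (0%), with 114 at an unadjusted p under 0.05. Fst was 0.31 at 3 days, 0.80 at 7 days and -0.08 at 14 days. Spp1 was 0.75, 1.65 and -1.90 at these times, and Myog 0.20, 0.64 and -0.22. The myogenic median was 0.18, 0.29 and -0.04, and the proliferation median 0.17, 0.31 and -0.08. These are separate rats at each time, and none of the named 14 day values was called.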

How the data were processed

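The authors quantified rat TA muscle RNA-Seq libraries with Kallisto against build 6.0 and deposited TPM per gene symbol. TPM scales every library to one total, so depth is unknown and no counting error is given. Of 16182 symbols, the last was incomplete and left out, and symbols alphabetically after Tubb3 were not used here. The authors tested counts with DESeq2 per the study's methods (the submitters' processing notes name DESeq); limma was used here because the table holds TPM.

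Libraries under 7000 symbols above 1 TPM were left out (13 in the series). In these muscles kept libraries had 10628 to 10948 symbols and at most 0.79% ribosomal RNA, and those left out 2378 to 4146 and at least 79.8%. Among kept libraries of the other groups, ribosomal RNA was 16.2% in unrepaired non-running rat 011 at 7 days. It was 14.8% and 14.2% in unrepaired running rat 002 at 3 days. Libraries of one muscle were averaged, and 9 samples with conflicting labels were not assigned. Genes with a mean above 1 TPM in at least 1 group were fitted with limma 3.58.1 (R 4.3.3, intensity trend) on log2(TPM + 1), 76 injured muscles in 16 groups sharing one spread (60 residual degrees of freedom), with Benjamini-Hochberg adjustment over 11257 genes. The code was tested on simulated data.

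Genes named are those of 34 lists and of the study's text, the 6 lowest p in each direction where no gene was called, and Acpp, Cadm4, Mir628 and Mir3084c, chosen after their values were seen. A few genes that met these rules are not reported here. Members and lists were chosen with earlier results of these data known. Keratinocyte, neutrophil, B cell, Schwann cell and circadian lists had values for under 80% of members, and their checks are void. Alternatives were a pseudocount of 0.1, no filter, size factors, ribosomal RNA removed, all libraries kept, the compared groups alone, all groups, each library separate, rat number range as a covariate, robust estimation, adjusted p alone, and each muscle left out.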

Additional observations from a re-analysis of the deposited data

Results flagged for a closer look

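Among the groups of 4 muscles examined, 1 in each arm for each of 72 named genes, 10 held a muscle far from the other 3 by Dixon's test; chance flags about 1 in 20. Unrepaired rat 031 accounts for 6 of them. It was low in Myf6 at 111.39 TPM (the others 239.99 to 241.89) and in Ckm, the muscle creatine kinase, at 4323.65 TPM (10151.2 to 11204.8). It was high in Id3 at 177.83 TPM (105.06 to 116.53), Smad2 at 21.76 TPM (17.27 to 17.76), Col1a1 at 9031.95 TPM (3747.15 to 4376.38) and Eln at 93 TPM (66.86 to 70.76). Grafted rat 028 was high in Spp1 at 1954.75 TPM (847.7 to 987.33) and Hbb at 2244.2 TPM (1207.45 to 1304.63). Grafted rat 027 was high in Cd79b at 0.95 TPM (0.18 to 0.29) and low in Itga7 at 55.82 TPM (82.29 to 82.54).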

How the results depend on the processing

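No gene was called for the graft in running rats at 7 days under 10 of the alternatives applied to all muscles; with the compared groups fitted alone 1 was called, Mir3084c (log2 fold change 1.65, adjusted p = 0.0121, 0.00913% of those tested), and leaving out single muscles gave 0 to 1 (0% to 0.00888%, Syt8 without rat 027). Without rat 004 the unadjusted count was 282 higher and 37 lower, without rat 031 it was 1796 and 123, and with all libraries kept 1561 and 12. In non-running rats 9 genes were called (0.08% of those tested), against 27 with a pseudocount of 0.1 (0.24%), 1 under size factors (0.00888%), 5 without ribosomal RNA (0.0442%), 1.2% with all libraries kept, 1 with the compared groups alone (0.00918%), 591 by adjusted p alone (5.25%) and 0 to 32 with single muscles left out (0% to 0.284%). At 3 days in running rats 1 passed by adjusted p alone (0.00888%), and with single muscles left out none was called. Neither difference between graft effects called a gene in any alternative. Of 72 named genes, 56 kept their direction under the alternatives that left out no muscle. Under size factors, which moved the median of all genes from 0.113 to 0.002, the sign turned for Id2 (-0.013), Snai1 (-0.093), Bmp1 (-0.065), Smad2 (-0.003), Eln (-0.058), Lox (-0.053), Tgfb1 (-0.008), Pdgfra (-0.064), S100a4 (-0.096) and Akt1 (-0.038). With all libraries kept it turned for Ccl2 (0.056), Col1a1 (0.065), Col3a1 (0.037), Pdpn (0.067), Slc4a1 (0.005) and Ckm (0.083); the cause was not tested. With single muscles left out, the values that changed sign ranged from -0.021 to 0.451 (Pax7), -0.087 to 0.529 (Myod1), -0.08 to 0.317 (Mstn), -0.039 to 0.305 (Id2), -0.127 to 0.303 (Snai1), -0.038 to 0.253 (Bmp1), -0.007 to 0.274 (Smad3), -0.472 to 0.334 (Ccl2), -0.076 to 0.452 (Acta2), -0.347 to 0.128 (Col1a1), -0.023 to 0.169 (Eln), -0.09 to 0.227 (Lox), -0.034 to 0.316 (Tgfb1), -0.042 to 0.234 (Pdgfra), -0.29 to 0.049 (Pdpn), -0.109 to 0.167 (S100a4), -0.282 to 0.029 (Slc4a1), -0.097 to 0.563 (Myh4). No paired analysis was possible because the 2 arms hold different rats. With TPM alone, depth sets no interval, and 4 rats an arm limit the precision.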
